A study of Homo sapiens with 9 samples.

Results

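Human HCT8 cells responded to bacterial membrane vesicles with a small set of transcript changes that had the same direction for vesicles of Vibrio cholerae and of Escherichia coli. The comparison sets the mean of both vesicle groups, each with equal weight, against the control, with the replicate number as a block. Rows of the count table entered where at least 3 of the 9 libraries held 10 or more counts, which left 4067 of 26008 rows. HCT8 is an established line from an ileocecal colorectal adenocarcinoma, and the groups were 3 libraries of cells given V. cholerae C6706 vesicles, 3 given E. coli MC1061 vesicles and 3 controls. All were incubated for 5 h, the controls with 20 mM Tris-HCl in place of vesicles, although their sample labels call them untreated. The labels do not say that the replicates were separate cultures, so the p-values measure the spread between these libraries, which may be technical.

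Gram-negative bacteria shed membrane vesicles, small particles that carry lipopolysaccharide, proteins and nucleic acids and that epithelial cells can take up. Epithelial cells sense such cargo with Toll-like and NOD-like receptors, which signal to NF-kB. Oxidative stress acts through the transcription factor NRF2, which pairs with small MAF proteins and drives antioxidant, iron storage and autophagy receptor genes.

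Library totals ran from 363557 to 733412 counts, and 95.07% of the counts fell in tested rows. In CPM (counts scaled by TMM to a common library total), 3 counts were worth 3.83 to 9.08, and a row at such a level carries little precision. Many abundant rows lie opposite another gene's exons on the other strand, while rows of genes that every cell uses were low, GAPDH with 33 to 63 counts per library and ACTB with 21 to 34. The row of the epithelial keratin KRT18 held 56 to 96 counts and the KRT8 row, opposite it, 7550 to 11346. Each row below is therefore given with the gene opposite it in the GENCODE 29 annotation, and the table does not say which strand gave the reads. Of 8 colon epithelium markers, the KRT8 row alone was abundant under its own name, a row opposite VIL1 held 5254 counts over the 9 libraries, and the EPCAM row held 90. Fibroblast marker rows held 1 count in all, red cell rows 1, and the immune markers PTPRC and CD3E 0, while the CD68 row held 375, LYZ 142 and CD14 95, and together the immune markers were at 132 to 188 CPM of the unscaled library total in controls, 92.6 to 160 with V. cholerae and 153 to 209 with E. coli vesicles. Libraries of replicate 3 stood apart from those of replicates 1 and 2 within each group.

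Vesicles changed 36 rows, 0.885% of those tested, at a Benjamini-Hochberg adjusted p under 0.05 by edgeR's quasi-likelihood test. Of these, 24 (0.590% of rows tested) were higher and 12 (0.295%) were lower. The 3 smallest p-values were those of rises in the C5orf45 row, opposite the autophagy receptor gene SQSTM1, in MYBBP1A, which overlaps the sphingosine-1-phosphate transporter gene SPNS2 on the other strand, and in PP7080, opposite the exocyst gene EXOC3. In size the 36 rows ran from 0.35 to 3.00 on the log2 scale. The median was 1.12 for the higher rows and -0.80 for the lower ones, and 13 rose and 4 fell by log2 1 or more. Over all rows tested the median log2 fold change was -0.00.

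All 36 rows had the same sign against control with either vesicle, and 0 had opposite signs. Both comparisons use the same 3 control libraries, so this count is not independent support. The 36 rows were also picked by the pooled test on these same libraries. The counts that follow in this paragraph therefore describe the rows and are no added support. Taken alone, E. coli vesicles changed 30 of the 36 rows, where 2.07% of all rows tested were called, 1.30% higher and 0.762% lower. V. cholerae vesicles changed 14 of the 36, where 0.344% of all were called, 0.270% higher and 0.0738% lower. Both alone called 10 rows, and 2, TMEM50B and GULP1, were called only when the groups were pooled. Without a correction for multiple tests, 35 of the 36 had p under 0.05 in each comparison alone, a level that 7.33% of all rows tested passed with V. cholerae and 18.7% with E. coli vesicles. In 35 rows all 6 same-numbered ratios to control shared a sign, as they did in 13.6% of rows tested (7.16% higher, 6.47% lower), and SOCS2 had 5 of 6. The 6 vesicle libraries lay wholly above the 3 controls in 16 of the higher rows (1.48% of rows tested) and wholly below them in 6 of the lower rows (1.25% of rows tested). In 2 of the 36, B3GALT6 and MCAT, no control library reached 10 counts, so these rows entered only through the vesicle libraries. That holds for 94 of all rows tested. The filter favours a rise in such rows, so these 2 calls are no support.

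The number of calls rested on the block and on single libraries. Without the replicate block 6 rows were called, all higher: C5orf45, MYBBP1A, PP7080, B3GALT6, C11orf68 and SOCS2. With the block kept, the count was 4 without control replicate 1, 4 without control replicate 2, 21 without V. cholerae replicate 1, 19 after E. coli replicate 1 was left out and 461 after E. coli replicate 3 was. The C5orf45 and MYBBP1A rows were called under each of the 23 alternatives. No row of the 36 changed sign under any alternative in which it was tested. The alternatives reuse the libraries on which the rows were picked, so the kept signs are no added support.

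**Figure D1:**
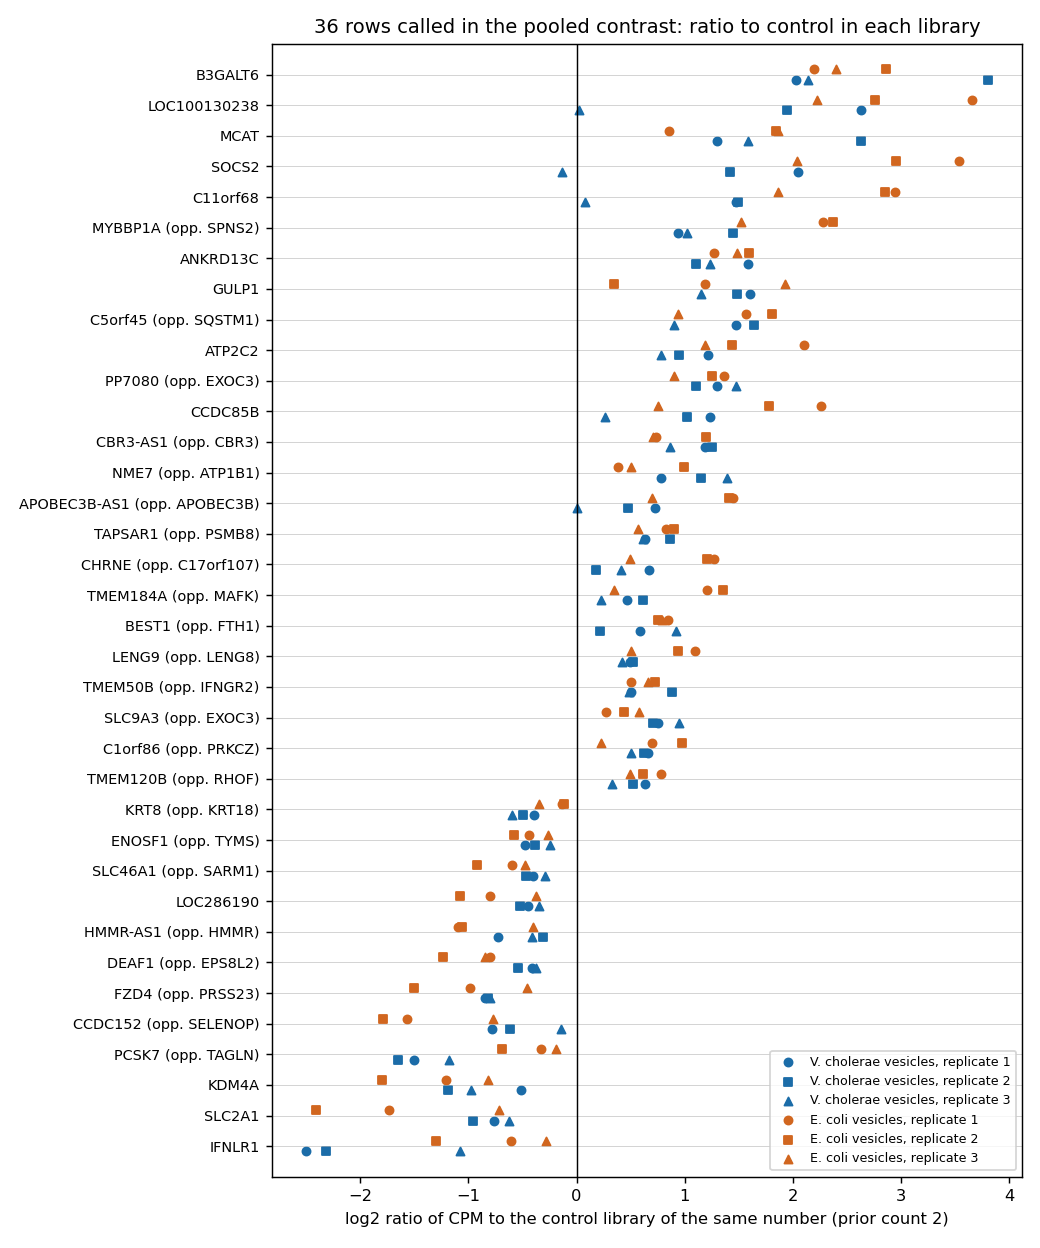
Log2 ratio of CPM in each vesicle library to the control library of the same number, for the 36 rows called in the pooled contrast (opp. marks the coding gene opposite). Circles, squares and triangles are replicates 1, 2 and 3, blue is V. cholerae and orange is E. coli. The higher rows lie right of 0, except that V. cholerae replicate 3 is left of 0 for SOCS2 and at 0.00 for APOBEC3B-AS1, and the 12 lower rows lie left of 0.

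The C5orf45, CBR3-AS1, TMEM184A and BEST1 rows, each opposite an NRF2 target gene or partner, rose. The C5orf45 row stood at 1623, 1414 and 1541 CPM in the controls, at 4503, 4407 and 2888 CPM with V. cholerae vesicles and at 4828, 4952 and 2953 CPM with E. coli vesicles. Every vesicle library was above every control, and the libraries of replicate 3 were the lowest in each vesicle group. The pooled log2 fold change was 1.38 ± 0.13 (SE), a 2.59-fold rise (adjusted p = 2.97e-05). SQSTM1 encodes a receptor that carries ubiquitinated cargo into autophagosomes and binds the NRF2 inhibitor KEAP1.

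CBR3-AS1, antisense to the carbonyl reductase gene CBR3, held 157, 145 and 56.2 CPM in the controls, 364, 353 and 106 CPM with V. cholerae vesicles and 266, 339 and 95.0 CPM with E. coli vesicles. Replicate 3 was low in all groups, so the groups overlapped while each same-numbered pair rose (log2 1.04 ± 0.18, adjusted p = 0.00559). The TMEM184A row lies opposite MAFK, a small MAF partner of NRF2, and went from 1080 ± 52.5 CPM to 1474 ± 232 with V. cholerae and 2233 ± 798 with E. coli vesicles (SD, n = 3). Its pooled log2 fold change was 0.70 ± 0.14. The BEST1 row, opposite the ferritin heavy chain gene FTH1, rose by log2 0.70 ± 0.15, from 282 ± 87.2 CPM to 410 ± 28.6 and 491 ± 142 CPM (SD, n = 3).

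Of 7 tested rows opposite genes of the NRF2 antioxidant and iron list, these 4 rose and 0 fell, with a median log2 fold change of 0.70. Over all rows tested 0.590% were called higher and 0.295% lower, with a median of -0.00. The other 3 did not pass: MGAT4B, also opposite SQSTM1 (-0.39 ± 0.29), SLC7A11-AS1 opposite the cystine transporter SLC7A11 (0.31 ± 0.36) and MMACHC opposite the peroxiredoxin PRDX1 (0.08 ± 0.14). By the rows' own names 11 members of that list were tested and 0 were called, with a median of 0.04. Among them NQO1, a quinone reductase, stood at 0.52 ± 0.31 and GCLM, a subunit of the glutathione synthesis enzyme, at 0.06 ± 0.32. This list and those below were chosen with earlier results of these data known, so their counts are no independent support.

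The MYBBP1A row, opposite SPNS2, stood at 115, 115 and 93.0 CPM in the controls, at 224, 321 and 194 CPM with V. cholerae vesicles and at 574, 614 and 276 CPM with E. coli vesicles. No vesicle library reached down to the controls, and the rise was 3.12-fold (log2 1.64 ± 0.19, adjusted p = 1.99e-04). MYBBP1A itself encodes a nucleolar MYB-binding protein, and it was the 1 row called of 9 tested by name in the list of ribosome biogenesis and nucleolus, whose median was 0.01. By opposite gene 0 of 6 rows of that list were called. For all rows tested, 0.590% were called higher and the median was -0.00.

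The NME7 row lies opposite ATP1B1, the beta subunit of the sodium pump. It held 1847, 1504 and 1151 CPM in the controls, 3185, 3343 and 3031 CPM with V. cholerae vesicles and 2407, 2995 and 1632 CPM with E. coli vesicles. E. coli replicate 3 lay within the controls' range, and the pooled rise was log2 0.87 ± 0.13 (adjusted p = 0.00172).

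PP7080 and SLC9A3 both lie opposite EXOC3, a subunit of the exocyst that tethers secretory vesicles to the plasma membrane, so they are not separate loci. The PP7080 row held 127, 161 and 190 CPM in the controls, 320, 353 and 534 CPM with V. cholerae vesicles and 335, 391 and 358 CPM with E. coli vesicles. All vesicle libraries were higher than all controls (log2 1.26 ± 0.17, adjusted p = 8.27e-04). The SLC9A3 row, named for the apical sodium-proton exchanger, rose by log2 0.62 ± 0.10. The row of ATP2C2, a calcium pump of the secretory pathway that lies opposite ATP2C2-AS1, held 35.1 ± 13.6 CPM in controls, 71.7 ± 15.9 with V. cholerae and 109 ± 6.53 with E. coli vesicles (SD, n = 3), a rise of log2 1.31 ± 0.25.

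The CCDC152, SLC2A1 and SLC46A1 rows fell. CCDC152, opposite the selenium carrier gene SELENOP, held 684, 531 and 209 CPM in the controls, 396, 344 and 189 CPM with V. cholerae vesicles and 228, 151 and 121 CPM with E. coli vesicles. Control replicate 3 lay as low as treated libraries, and within each number the vesicle libraries were lower (log2 -0.98 ± 0.16, adjusted p = 0.00437). SLC2A1, a glucose transporter with SLC2A1-AS1 on its other strand, fell to 0.436-fold of control, with 32, 41 and 49 counts in the controls, 19, 19 and 47 with V. cholerae and 9, 6 and 26 with E. coli vesicles. It was the 1 row called of 10 tested by name in the hypoxia and glycolysis list (median -0.20), and 0 of 5 were called by opposite gene. For all rows tested, 0.295% were called lower and the median was -0.00. SLC46A1, named for the proton-coupled folate transporter and opposite SARM1, fell from 833 ± 15.3 CPM to 637 ± 30.4 and 529 ± 76.2 CPM (SD, n = 3).

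In the list of epithelial ion pumps and transporters, 2 of 9 tested rows rose by name (SLC9A3 and ATP2C2) and 1 of 6 rose by opposite gene (NME7), with medians of -0.18 and -0.20. Over all rows tested 0.590% were called higher, with a median of -0.00. Just outside the threshold, the row of the phosphate transporter SLC20A1 stood at log2 -1.73 ± 0.41 (adjusted p = 0.0537) and SMIM19, opposite the phosphate transporter SLC20A2, at -1.36 ± 0.32 (adjusted p = 0.0544). The SLC20A1 row held 14, 16 and 14 counts in the controls, 3, 10 and 4 with V. cholerae and 6, 2 and 3 with E. coli vesicles. Its size therefore carries little precision. The row named SLC20A2 was at -0.34 ± 0.24 (adjusted p = 0.572).

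**Figure D2:**
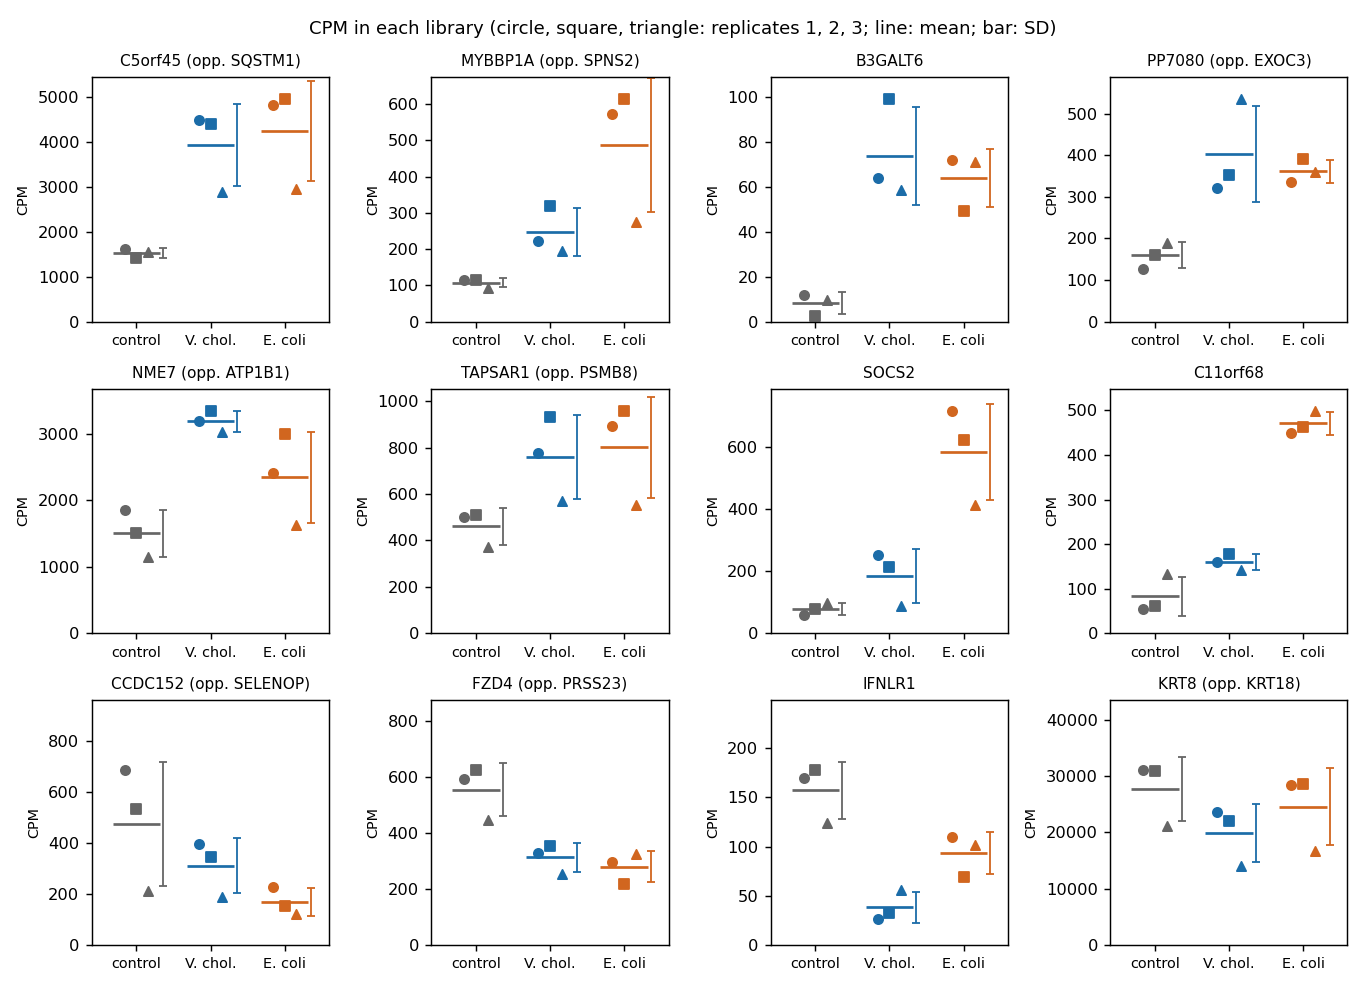
CPM on a linear axis from 0 in each of the 9 libraries for 12 of the 36 rows (grey control, blue V. cholerae, orange E. coli; line, mean; bar, SD, n = 3). C5orf45, MYBBP1A, B3GALT6, PP7080 and TAPSAR1 are higher in all 6 vesicle libraries than in all 3 controls, and FZD4 and IFNLR1 are lower in all 6.

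Rows of antigen processing and cytokine signalling moved in both directions. TAPSAR1 lies opposite PSMB8, an immunoproteasome subunit, and TAP1, the peptide transporter that loads MHC class I. The row held 500, 511 and 370 CPM in the controls, 777, 933 and 569 CPM with V. cholerae vesicles and 892, 958 and 553 CPM with E. coli vesicles. All vesicle libraries were above the controls (log2 0.74 ± 0.12, adjusted p = 0.00437). The table holds 8 rows named TAPSAR1, and the other 7 were at 0 counts. The APOBEC3B-AS1 row, opposite the cytidine deaminase gene APOBEC3B, rose by log2 0.81 ± 0.16, and its V. cholerae replicate 3 (168.7 CPM) was level with control replicate 3 (168.6 CPM). TMEM50B, opposite the interferon gamma receptor subunit IFNGR2, rose by log2 0.64 ± 0.14, with 0.63 and 0.64 for V. cholerae and E. coli vesicles.

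SOCS2, a suppressor of cytokine receptor signalling whose row lies opposite SOCS2-AS1, held 57.5, 76.6 and 96.9 CPM in the controls and 716, 622 and 412 CPM with E. coli vesicles. With V. cholerae vesicles it held 253, 213 and 88.2 CPM, so replicate 3 was below its control. The pooled rise was log2 1.93 ± 0.30 (adjusted p = 0.00849). IFNLR1, a subunit of the interferon lambda receptor with no exon opposite, held 170, 178 and 124 CPM in the controls, 26.2, 32.1 and 56.2 CPM with V. cholerae vesicles and 110, 69.5 and 101 CPM with E. coli vesicles. Its groups did not overlap, and it fell by 1.33 on the log2 scale with an SE of 0.24.

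In the list of interferon and antigen processing genes 1 of 7 tested rows rose and 1 fell by name, and 2 of 3 rose by opposite gene, with medians of 0.21 and 0.74. Over all rows tested 0.590% were called higher and 0.295% lower. The NF-kB and innate response list gave 2 tested rows by name and 2 by opposite gene, with 0 called. The inflammasome sensor rows NAIP (log2 0.79 ± 0.24, adjusted p = 0.181) and NLRC4 (0.75 ± 0.28, adjusted p = 0.265) did not pass. Rows named for the NF-kB targets CXCL8 (2 counts over the 9 libraries), CCL20 (1) and NFKBIA (15) were too low for a change to be detectable. Rows named for GAPDH (33 to 63 counts per library) and ACTB (21 to 34) were low too. Low counts under a gene's own name therefore do not tell how much of it was expressed, or whether it responded. The immediate early list had 2 tested rows by name and 1 by opposite gene, and 0 were called.

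A row opposite a gene of DNA synthesis and one opposite a gene of mitosis fell. The ENOSF1 row, opposite thymidylate synthase TYMS, held 17270, 16400 and 9737 CPM in the controls, 12410, 12590 and 8229 CPM with V. cholerae vesicles and 12720, 11010 and 8130 CPM with E. coli vesicles. Replicate 3 was the lowest in each group and the groups overlapped, while all 6 same-numbered ratios were below 1 (log2 -0.40 ± 0.08, adjusted p = 0.0128). HMMR-AS1, opposite the mitotic spindle gene HMMR, fell from 1106 ± 194 CPM to 787 ± 113 and 609 ± 73.2 CPM (SD, n = 3), a log2 change of -0.66 ± 0.13.

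For G1/S and DNA replication genes, 1 of 8 rows by opposite gene fell (0.295% of all rows tested were called lower), and the median was -0.52. At an unadjusted p under 0.05, 6 of the 8 were lower (12.0% of all rows tested passed that level in either direction). GSE1, opposite the replication helicase subunit GINS2, lay just outside the threshold at -0.59 ± 0.14 (adjusted p = 0.0535). TYMSOS, a second row opposite TYMS, stood at -0.69 ± 0.19 and did not pass. By name, 10 rows of that list had a median of -0.25 and 0 were called. The G2/M list had 1 called row of 4 by opposite gene (HMMR-AS1), a median of 0.19 there, and 0 called of 3 by name. ERN2, opposite the mitotic kinase PLK1, stood at 0.40 ± 0.16 and did not pass.

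Cytoskeletal, adhesion and surface rows moved in both directions. The KRT8 row, opposite KRT18, is the most abundant of the 36. It held 31090, 31020 and 21210 CPM in the controls, 23630, 22010 and 14010 CPM with V. cholerae vesicles and 28420, 28580 and 16650 CPM with E. coli vesicles, a fall of 0.35 on the log2 scale. PCSK7, opposite the actin-binding gene TAGLN, held 124, 129 and 52.3 CPM in the controls, 40.7, 37.9 and 20.5 CPM with V. cholerae vesicles and 98.1, 78.1 and 45.3 CPM with E. coli vesicles. Its groups overlapped through control replicate 3, and it fell by log2 1.00. With V. cholerae vesicles alone PCSK7 and KRT8 stood at log2 -1.575 and -0.50 and passed edgeR's test. With E. coli vesicles alone they stood at -0.43 and -0.20 and did not pass (adjusted p = 0.345 and 0.187). TMEM120B, opposite RHOF, rose from 3206 ± 267 CPM to 4548 ± 727 and 4980 ± 717 CPM (SD, n = 3), log2 0.56 ± 0.09.

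The FZD4 row, named for a WNT receptor and opposite the secreted protease gene PRSS23, held 594, 623 and 446 CPM in the controls, 329, 353 and 254 CPM with V. cholerae vesicles and 297, 217 and 324 CPM with E. coli vesicles. All 6 vesicle libraries were below all controls (log2 -0.90 ± 0.16, adjusted p = 0.0074). DEAF1, opposite the EPS8 family member EPS8L2, fell by log2 0.71 and C1orf86, opposite the polarity kinase PRKCZ, rose by 0.62 ± 0.13. CHRNE, whose exons lie opposite C17orf107, MINK1 and GP1BA, rose by 0.72 ± 0.15. In the actin and SRF list 1 of 6 rows fell by opposite gene (PCSK7) and 0 of 13 were called by name, with medians of -0.07 and -0.29. Of keratin and junction genes 1 of 8 rows fell by name (KRT8), with a median of -0.25. Beside both lists, 0.295% of all rows tested were called lower, and their median was -0.00.

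Rows of chromatin and transcription genes followed. KDM4A, a lysine demethylase of histones opposite KDM4A-AS1, held 106, 112 and 103 CPM in the controls, 72.7, 46.6 and 49.8 CPM with V. cholerae vesicles and 43.3, 28.9 and 56.1 CPM with E. coli vesicles. The groups did not overlap (log2 -1.13 ± 0.23, adjusted p = 0.0186), and the E. coli libraries held 10 to 26 counts. Of 18 tested rows named for DNA and histone modifying enzymes KDM4A alone was called, and the list's median was -0.32. For all rows tested, 0.295% were called lower and the median was -0.00. By opposite gene 0 of 5 were called, with HNRNPA2B1 opposite the heterochromatin protein CBX3 at 1.04 ± 0.25 (adjusted p = 0.061). The row of the maintenance methyltransferase DNMT1 stood at -0.36 ± 0.28.

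The C11orf68 row has no exon opposite and lies 140 nt from DRAP1, a transcriptional corepressor. It held 54.5, 60.1 and 134 CPM in the controls, 160, 178 and 142 CPM with V. cholerae vesicles and 450, 463 and 499 CPM with E. coli vesicles. All vesicle libraries were above the controls (log2 1.70 ± 0.23, adjusted p = 0.00107). CCDC85B, 414 nt from the AP-1 subunit gene FOSL1, rose from 110 ± 21.2 CPM to 199 ± 34.2 and 352 ± 120 CPM (SD, n = 3), log2 1.19 ± 0.22.

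B3GALT6 encodes a galactosyltransferase that builds the linker of glycosaminoglycan chains. Its row held 4, 1 and 5 counts in the controls, 22, 34 and 46 with V. cholerae vesicles and 25, 17 and 33 with E. coli vesicles. In CPM these were 8.18 ± 4.87, 74.0 ± 21.9 and 64.2 ± 13.0 (SD, n = 3), with a pooled log2 fold change of 3.00 ± 0.40. The row entered the test only through the vesicle libraries, so its call is no support, and its size rests on 10 control counts in all.

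Rows with few counts or little known of them complete the set. MCAT, the mitochondrial malonyl transferase, rose by log2 2.15 ± 0.41 from 3, 2 and 5 control counts. GULP1, an engulfment adaptor, rose by 1.45 ± 0.33 (adjusted p = 0.0498) and ANKRD13C, 71 nt from HHLA3, by 1.53 ± 0.27 from 7, 9 and 14 control counts. LENG9, opposite LENG8, rose by 0.67 ± 0.13. LOC100130238 rose by 2.41 ± 0.35, with V. cholerae replicate 3 at 21.7 CPM against 21.3 in control replicate 3, and LOC286190 fell by 0.60.

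E. coli vesicles gave the larger fitted size in 26 of the 36 rows and V. cholerae vesicles in 10. Among all rows tested, edgeR's unadjusted p was under 0.05 in 18.7% with E. coli and 7.33% with V. cholerae vesicles. The share of all rows with the larger size for E. coli vesicles was not counted, so the 26 is not particular to this set. The difference between the vesicles was itself tested, and C11orf68 was the 1 row of the 36 that passed (0.0492% of all rows tested), at log2 -1.58 for V. cholerae minus E. coli (95% interval -2.07 to -1.09). Without a correction for multiple tests, 16.1% of all rows tested had p under 0.05 for that difference by edgeR's test. For 19 of the 36 rows its 95% interval excluded 0, and for 17 it included 0. In C5orf45 it ran from -0.39 to 0.18, in TAPSAR1 from -0.35 to 0.22 and in B3GALT6 from -0.47 to 0.77. SOCS2 had a difference of -1.73 (-2.36 to -1.10) and MYBBP1A one of -0.94 (-1.34 to -0.54), with adjusted p of 0.0639 and 0.0669. In the other direction IFNLR1 fell further with V. cholerae vesicles, by -1.18 (-1.83 to -0.53), and PCSK7 by -1.14 (-1.73 to -0.55), with adjusted p of 0.0884 and 0.071.

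**Figure D3:**
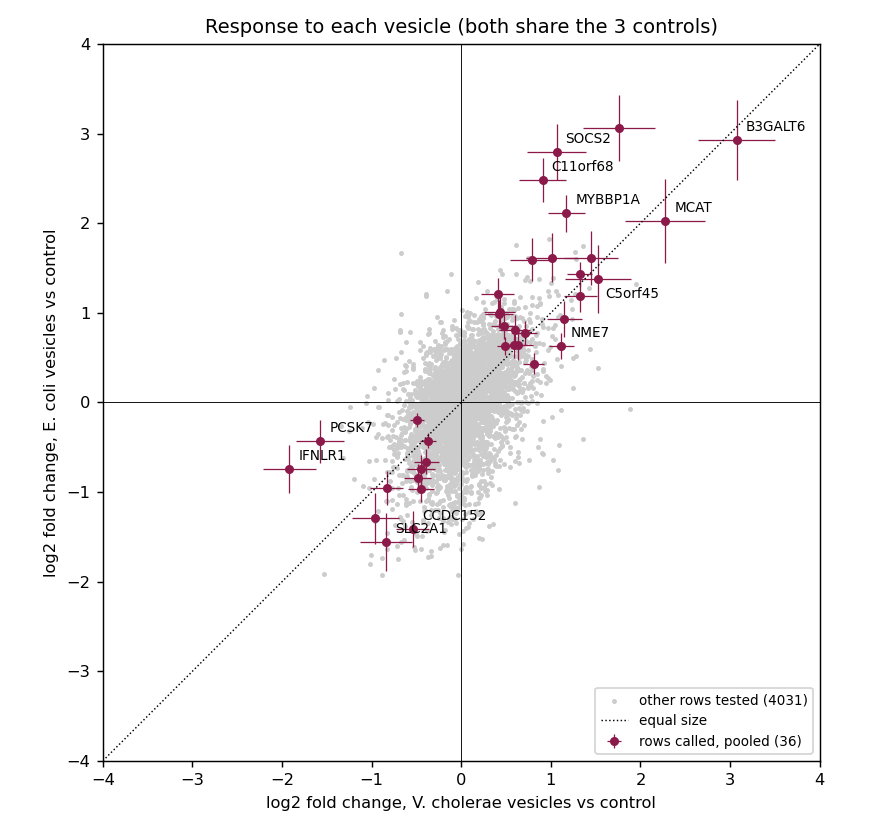
Log2 fold change against control with V. cholerae vesicles (x axis) and with E. coli vesicles (y axis) for the 36 called rows (dark points, bars are SE) and the other rows tested (grey). The same 3 controls enter both axes, so grey points lean along the diagonal, and C11orf68 lies above the dotted line of equal size, where the difference between vesicles passed its test.

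Rows named for the gene on the other strand of the same loci did not pass the test. Of the 36 rows, 23 (63.9%) had a coding gene opposite, against 42.1% of all rows tested. The 36 were also more abundant, with a median of 144 counts per library against 20.2. The part of abundance in the larger share was not tested. For 17 of the 36, 18 rows named for the opposite gene, coding or not, could be tested. Of these 0 were called by edgeR, 1 had an unadjusted p under 0.05 (SARM1) and 9 had a log2 fold change under 0.2 in size. Among all rows tested 0.885% were called and 12.0% had an unadjusted p under 0.05. With 18 rows, these counts therefore do not set the rows named for the opposite gene apart from other rows. The SQSTM1 row stood at 1033 ± 141 CPM in controls, 1024 ± 168 with V. cholerae and 1094 ± 71.3 with E. coli vesicles (SD, n = 3), log2 0.04 ± 0.10, beside 1.38 for C5orf45. The SPNS2 row was at 0.00 ± 0.09, beside 1.64 for MYBBP1A, with 1738 to 3298 counts. KRT18, at -0.27 ± 0.16, and TYMS, at -0.23 ± 0.14, were closer to the rows opposite them. In sign 11 of the 18 matched the called row. Of the other 7, TAGLN stood at 0.32 ± 0.28 beside PCSK7, which fell, and GP1BA (-0.39 ± 0.19) and MINK1 (-0.48 ± 0.32) beside 0.72 for CHRNE. Whether the 2 rows of a locus differ was not tested.

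**Figure D4:**
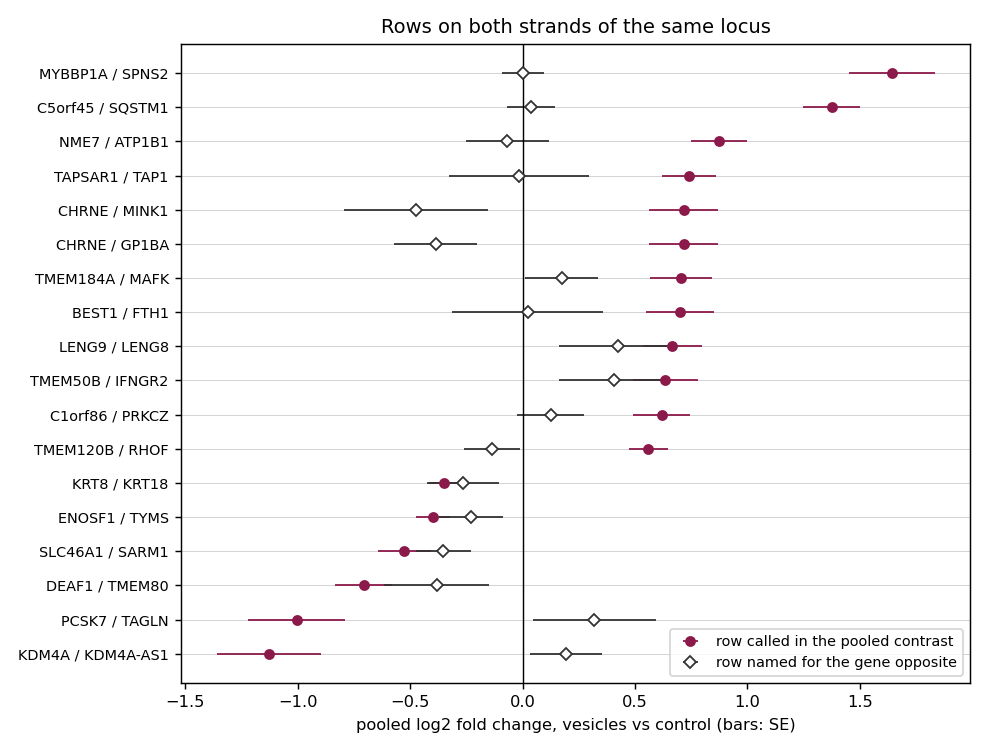
Pooled log2 fold change (bars are SE) of called rows (filled) and of the rows named for the gene opposite (open), with both names on the y axis. The open points of SPNS2, SQSTM1, ATP1B1, TAP1 and FTH1 lie at or near 0 while the filled points beside them lie between 0.70 and 1.64.

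Promoter windows of genes opposite, or next to, the 36 rows were searched on both strands for binding motifs of stress factors. Where several coding genes lay opposite a row, only the gene with the most overlap was looked up. TAP1, for example, was not searched. RefSeq windows of GRCh38.p14, 250 nt before to 50 nt after a start, were at hand for 16 of 27 such genes (25 windows). The NRF2 motif TGACNNNGC was in 2 of the 25 windows, of SELENOP and EPS8L2, both opposite rows that fell. It was in 13.3% of all 35116 windows at hand, a set that does not hold every gene. The 3 windows of SQSTM1 did not hold it, and CBR3, MAFK and FTH1 were not among the 16 genes. The AP-1 motif TGANTCA was in 0 of the 25 windows (7.71% of all windows), the E-box CACGTG in 1, SDF4 (7.26%), and the NF-kB consensus motif in 1, IFNGR2 (0.336%). These motifs do not overlap one another in the windows shown. The bases before the start of 3 genes are given, 5′ to 3′ on the gene's own strand with the match in capitals. SDF4 lies on the other strand 195 nt from the B3GALT6 exons, SELENOP is opposite a row that fell and IFNGR2 opposite one that rose.
SDF4 (chr1:1232002-1232251, minus strand): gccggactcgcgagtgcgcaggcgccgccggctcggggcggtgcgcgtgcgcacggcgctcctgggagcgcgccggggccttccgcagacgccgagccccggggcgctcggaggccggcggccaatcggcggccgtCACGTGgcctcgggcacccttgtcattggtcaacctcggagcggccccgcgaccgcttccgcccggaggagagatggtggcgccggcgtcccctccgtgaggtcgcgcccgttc
SELENOP (chr5:42811893-42812142, minus strand): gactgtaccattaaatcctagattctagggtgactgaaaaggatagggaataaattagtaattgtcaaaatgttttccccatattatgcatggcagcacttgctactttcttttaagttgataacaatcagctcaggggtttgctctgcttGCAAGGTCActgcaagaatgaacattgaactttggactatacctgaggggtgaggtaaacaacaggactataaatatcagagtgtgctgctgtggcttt
IFNGR2 (chr21:33403163-33403412, plus strand): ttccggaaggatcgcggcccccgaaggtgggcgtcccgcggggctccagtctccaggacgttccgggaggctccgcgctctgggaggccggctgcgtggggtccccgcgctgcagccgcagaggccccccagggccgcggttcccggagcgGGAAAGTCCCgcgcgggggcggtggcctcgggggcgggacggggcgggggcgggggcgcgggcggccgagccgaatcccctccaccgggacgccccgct

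Some technical measures moved with the groups. Tested rows with a coding gene opposite were sorted by the annotated distance of their overlap from that gene's 3′ end. Whole counts of rows at 3000 nt or more were set against those of rows under 500 nt. The ratio was 11.9% and 10.8% in E. coli replicates 1 and 2, against 15.4% to 16.3% in the other 7 libraries. It compares 2 sets of rows and does not locate reads. Median distance from that 3′ end was 0 nt for the 15 higher rows that overlap a coding gene, 854.5 nt for the 8 lower ones and 373 nt for all such rows tested. With both of those libraries left out, an alternative added after the data were seen, 34 of the 36 rows were called and all kept their sign, with the lone E. coli library assumed to vary like the other groups. PCSK7 and SLC2A1 did not pass there. The MIR6723 and MIR4461 rows, of mitochondrial sequence, together took 1.79% to 3.54% of counts in controls, 2.19% to 5.02% with V. cholerae and 4.13% to 4.97% with E. coli vesicles. All 5 tested rows of mitochondrial sequence (these, MTRNR2L1, MTRNR2L2 and MTRNR2L8) had positive log2 fold changes and 0 were called. The part of these measures in the results was not tested.

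Around both thresholds the values run on without a gap. Counts of 10 or more were reached in exactly 3 libraries by 554 rows, with a median sum of 77 counts and 0 called, and in exactly 2 by 661 rows, with a median sum of 61. The last row called was GULP1, and the next rows outside were GSE1 (adjusted p = 0.0535) and NMT1, opposite DCAKD and PLCD3 (0.70, adjusted p = 0.0537).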

How the data were processed

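Polyadenylated RNA of 9 HCT8 libraries was sequenced as single 50 nt reads from a stranded kit, per the labels' protocols. The deposited file holds raw counts per gene row. The submitters' processing notes name HTSeq 0.6.1 and Cufflinks 2.2.1, the aligner TopHat2 2.0.12 with Bowtie2 2.2.3, and the hg19 build. Which strand was counted, and on which annotation, is not stated in the labels.

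Rows with 10 or more counts in at least 3 libraries were scaled by TMM and fitted in edgeR 4.0.16 (R 4.3.3) with group and replicate number as terms and robust quasi-likelihood. Contrasts were the mean of both vesicle groups minus control, each vesicle minus control, and V. cholerae minus E. coli. The SE is the log2 fold change divided by the square root of F, and 95% intervals use the fit's degrees of freedom. Log2 ratios of single libraries use a prior count of 2.

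Pairing by replicate number was checked with correlations of each library's deviations from its group mean. Same-numbered libraries of different groups correlated at 0.106 to 0.65, all above 0.1, but replicate 1 with replicate 2 gave 0.123 to 0.316, so the block mainly sets replicate 3 apart. V. cholerae replicates 1 and 2 differed by little more than sampling noise (chi-square per degree of freedom 1.08, against 1.51 to 12.4 in other pairs). They counted as 2 libraries, and as 1 sum in an alternative.

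Rows were matched by name to GENCODE 29 (24183 rows) for genes on the other strand. As the rows were counted on hg19, no row coordinates are given.

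Named rows were those called with 6 of 6 ratios of 1 sign and a mean of at least 20 counts, by the 10 smallest p and 10 largest changes in each direction, plus called list members. This named 29 rows, and the other 7 of the 36 (LOC100130238, MCAT, LENG9, C1orf86, CHRNE, LOC286190 and TMEM50B) were named after their values were seen, as were uncalled examples. The rows, lists and tests were chosen with earlier results of these data known. Alternatives used DESeq2 1.42.0 and limma 3.58.1, other scalings, filters and blocks, and left-out libraries.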

Additional observations from a re-analysis of the deposited data

Results flagged for a closer look

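The response of 2 rows differed between the vesicles by edgeR's test of the difference with the replicate block, 0.0492% of the rows tested. For C11orf68 the log2 difference of V. cholerae minus E. coli was -1.58 (adjusted p = 0.0135), with higher values than control for both vesicles. BAZ2A, opposite the RNA-binding protein gene RBMS2, had a log2 difference of -1.41 ± 0.24 (adjusted p = 0.0374). Its row held 84.8, 106.6 and 87.2 CPM in the controls, 98.9, 70.0 and 76.7 CPM with V. cholerae and 202, 327 and 155 CPM with E. coli vesicles, so it is no member of the shared set (pooled log2 0.54 ± 0.22, adjusted p = 0.336).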

How the results depend on the processing

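The pooled count of 36 rows became 6 without the replicate block (236 rows at an unadjusted p under 0.05), 57 with a block of 2 levels, 92 with no filter, 17 when tested against a 1.2-fold change and 347 with replicates 1 and 2 only. Leaving out 1 library at a time gave 4 to 461. All these rows had 1 sign with both vesicles, except that 404 of 461 and 306 of 347 did. With E. coli replicates 1 and 2 left out together, a setting chosen after seeing the data, 70 rows passed, all of 1 sign. The other settings gave 28 to 41 rows, 28 by DESeq2 and 30 by limma voom.

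The count for V. cholerae against E. coli, 2 rows with the block, was 0 without it, 80 with a block of 2 levels, 7 with RLE scaling, 170 with no filter, 0 with at least 20 counts in 6 libraries, 1 against a 1.2-fold change, 44 by DESeq2, 720 with replicates 1 and 2 only, 1 with V. cholerae replicates 1 and 2 summed and 6 without E. coli replicates 1 and 2. Leaving out 1 library gave 0 to 731, with 59 when V. cholerae replicate 3 was dropped and 731 when E. coli replicate 3 was.

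Of 823 values of the 36 rows over the alternatives, 612 kept their call, 211 lost it and 0 reversed. The rows were picked on these same libraries, so the lack of reversals is no added support. The cause of these shifts was not tested. With a median of 20.2 counts per library in the rows tested, against 144 in the 36 rows, smaller changes in low rows were not detectable at this depth.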
